A study of Mus musculus with 4 samples.

Results

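The S100 genes other than the calprotectin pair were followed in lung tissue with 4T1 breast cancer metastases, as 10 genes chosen by symbol from the 56748 genes of the count table: S100a1, S100a3, S100a4, S100a6, S100a10, S100a11, S100a13, S100a14, S100a16 and S100g. Bulk RNA sequencing gave 2 saline and 2 ADC/cmLumiOpto samples. Female BALB/cJ mice of 7 weeks had received 2000000 4T1-FLuc cells, a mouse triple-negative breast cancer (TNBC) line carrying luciferase, through the tail vein. The control arm received saline, which the labels call PBS, and the treated arm received both agents for 3 weeks. ADC is an antibody against CD276 that carries mertansine (DM1), a microtubule inhibitor, and cmLumiOpto is an AAV gene therapy whose cfos promoter drives a light-gated mitochondrial channel that opens when ViviRen is given. In the methods the ADC dose is 8 mg/kg and that of ViviRen 2 mg/kg. In the labels the ADC dose is 16 mg/kg, and the treatment carries the unexplained term Olap. They also speak of tumor cells where the methods speak of dissociated lung tissue, and markers of alveolar and airway cells were present in all 4 samples. The methods give 4 samples per group, and 2 per group are analysed here. Whether these 2 are among those 4 is not stated. The labels do not say whether the samples came from separate mice, so p-values measure only the spread between these samples.

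S100 proteins are small calcium-binding proteins built from a pair of EF hands, loops that hold the calcium ion. Most form dimers that open on calcium binding and then grip target proteins, among them annexins, myosin heavy chains and p53. Some are also secreted and bind RAGE, the receptor encoded by Ager, which alveolar type 1 cells of the lung hold in large amounts. S100g, or calbindin-D9k, is a calcium buffer of epithelia, and most other S100 genes lie in a single cluster, which is on chromosome 3 in the mouse.

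S100a1 and S100a13 are neighbors that point away from each other, and their start regions are shown because the 2 genes share one stretch of DNA and both had treated samples above saline samples. The sequences are RefSeq windows of 300 bases on GRCm38.p6, from 250 bases before to 50 bases after an annotated start, and 8 of the 10 genes have such a window. The S100a1 window is chr3:90514281-90514580 on the minus strand and the S100a13 window is chr3:90514185-90514484 on the plus strand, with starts 105 bp apart. Capitals mark the 204 bases that the windows share, each read on its own strand.
S100a1: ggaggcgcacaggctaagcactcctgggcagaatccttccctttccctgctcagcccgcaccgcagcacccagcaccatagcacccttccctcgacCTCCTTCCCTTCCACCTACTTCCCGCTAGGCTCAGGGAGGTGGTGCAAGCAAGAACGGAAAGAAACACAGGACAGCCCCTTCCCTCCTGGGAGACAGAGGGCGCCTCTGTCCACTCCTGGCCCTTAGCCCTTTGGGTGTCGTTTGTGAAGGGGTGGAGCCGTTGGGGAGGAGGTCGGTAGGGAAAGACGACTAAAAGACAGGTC
S100a13: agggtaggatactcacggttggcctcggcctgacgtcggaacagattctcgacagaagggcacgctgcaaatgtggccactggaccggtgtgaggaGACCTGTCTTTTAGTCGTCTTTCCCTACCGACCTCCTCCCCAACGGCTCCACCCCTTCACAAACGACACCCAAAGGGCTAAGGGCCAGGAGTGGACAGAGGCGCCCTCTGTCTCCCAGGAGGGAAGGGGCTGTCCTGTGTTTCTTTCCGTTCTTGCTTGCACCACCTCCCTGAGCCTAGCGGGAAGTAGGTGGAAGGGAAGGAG

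S100g and S100a11 are shown as the tested genes with the largest and the lowest fold change. The S100g window is chrX:162964550-162964849 on the minus strand, and the S100a11 window is chr3:93520246-93520545 on the plus strand. Capitals mark matches to 3 motifs searched on both strands, none of which overlap here: TATAAA (the TATA box), GGGCGG (the GC box) and TGANTCA (the AP-1 motif).
S100g: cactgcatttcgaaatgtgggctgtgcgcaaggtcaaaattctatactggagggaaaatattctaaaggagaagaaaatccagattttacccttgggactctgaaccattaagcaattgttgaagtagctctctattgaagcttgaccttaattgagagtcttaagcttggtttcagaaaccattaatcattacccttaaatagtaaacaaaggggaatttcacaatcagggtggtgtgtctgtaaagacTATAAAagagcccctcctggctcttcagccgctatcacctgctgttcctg
S100a11: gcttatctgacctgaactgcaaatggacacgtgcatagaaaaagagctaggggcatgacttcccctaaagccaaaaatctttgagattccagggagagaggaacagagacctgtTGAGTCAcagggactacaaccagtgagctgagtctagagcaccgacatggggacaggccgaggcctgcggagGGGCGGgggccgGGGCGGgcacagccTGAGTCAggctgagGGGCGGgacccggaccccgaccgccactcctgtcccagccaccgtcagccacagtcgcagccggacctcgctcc
S100a11 held 3 GC boxes and 2 AP-1 motifs, and S100g held TATAAA at its annotated start. TATAAA also stood in the S100a4 window, beginning 31 bases before the start, and the S100a1 and S100a13 windows held none of the 3 motifs. Among the 32851 mouse windows of the same length, 13.6% held TATAAA, 35.7% GGGCGG and 7.81% TGANTCA, against 3, 3 and 2 of the 12 windows of these S100 genes. These matches describe letters and are not evidence of binding.

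Read counts were compared by the quasi-likelihood test of edgeR, with p-values adjusted by Benjamini-Hochberg over 15320 tested genes, of which 0 passed an adjusted p of 0.05 (0% of the tested genes) and none fell below 0.116. Accordingly, none of the 9 S100 genes that could be tested passed. At an unadjusted p under 0.05, 6 of the 9 were higher in the ADC/cmLumiOpto samples, where 11% of all tested genes were, and 0 were lower, where 12.2% were. Both treated samples lay above both saline samples for 7 of the 9, where 28.1% of tested genes did, and in 0 of them did both lie below, where 28.8% did. The median log2 fold change was 0.75 over the 9 genes and 0.03 over all tested genes. S100a3 was left out by the filter on low counts. Levels are given as CPM, counts per 1000000 of the library total after TMM scaling, which adjusts totals for a few genes that take up many reads. In bulk samples, a change in the number of cells of one type and a change in the RNA per cell cannot be told apart.

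The other tools called more genes. DESeq2 called S100a1, S100a13, S100a14 and S100g as higher, with 3.78% of tested genes, and edgeR's exact test called the same 4 genes, with 3.96%. The quasi-likelihood test without the filter called 5, these and S100a4, with 4.79% of 25563 genes.

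**Figure D1:**
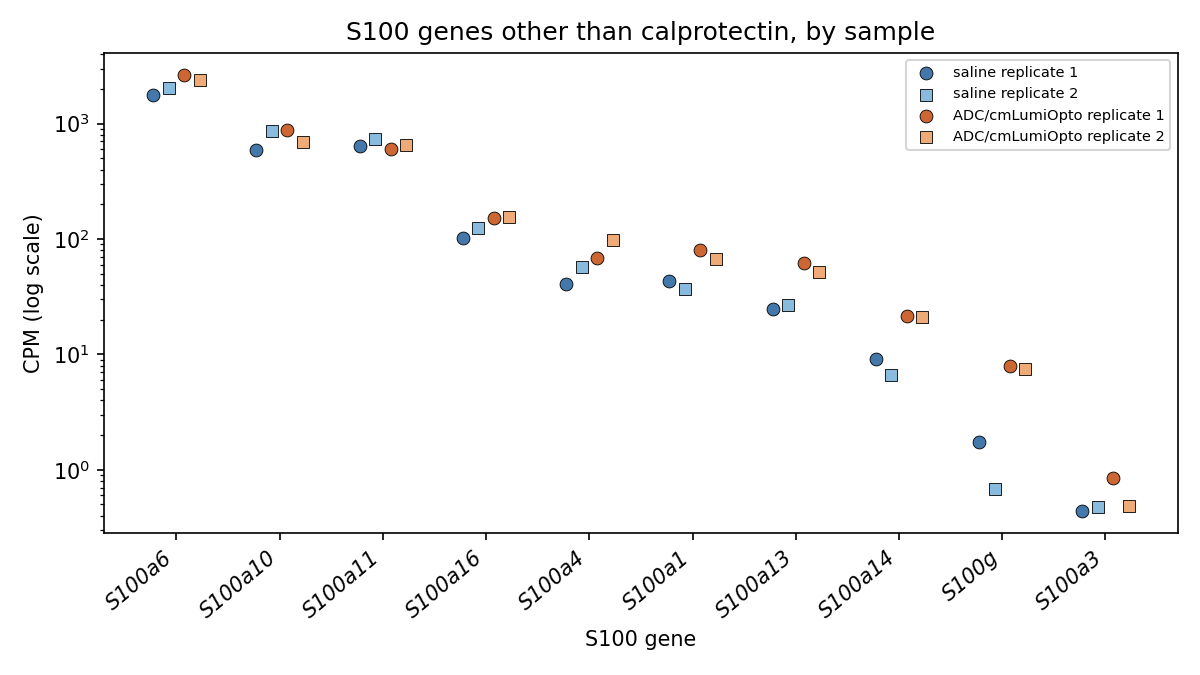
CPM (log scale) of the 10 S100 genes in each of the 4 samples, ordered by level. S100a6, S100a10 and S100a11 were the 3 most abundant genes in every sample, S100g reached 7.93 CPM at most and S100a3 0.850 CPM, and the ADC/cmLumiOpto points sit above the saline points for all genes but S100a10 and S100a11.

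S100g, the epithelial calcium buffer on chromosome X, was counted 28 and 10 times in saline and 140 and 153 times after treatment. In CPM these were 1.75 and 0.674 against 7.93 and 7.46. The groups did not overlap, and the saline samples differed from each other more than the treated ones. The log2 fold change was 2.65 (SE 0.51), a fold of 6.28, with an edgeR adjusted p of 0.116, above the log2 fold change of 99.2% of tested genes. The log2 fold change was 3.49 without saline replicate 1 and 2.13 without saline replicate 2. S100g lies wholly inside Ctps2, a nucleotide synthesis gene on the opposite strand. The strand setting of the counting is not given in the sources used here, so it is not known whether reads of the pair were kept apart. Ctps2 had 1030, 1140, 1171 and 1200 counts in the same order of samples, with a log2 fold change of -0.18 (SE 0.18).

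S100a14, an S100 protein of epithelial cells, had 145 and 98 counts in saline and 376 and 430 in the treated samples, or 9.06 and 6.61 against 21.3 and 21.0 CPM. Saline and treated values did not overlap, and the treated samples nearly coincided. Its log2 fold change was 1.43 (SE 0.26), a fold of 2.69, with an edgeR adjusted p of 0.116.

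S100a13, which takes part in the secretion of FGF1 and interleukin-1 alpha outside the classical route, had 397 and 396 counts in saline and 1088 and 1067 after treatment. The CPM were 24.8 and 26.7 against 61.7 and 52.0. Here the saline samples were nearly equal, and the lower treated sample was still clear of both. The log2 fold change was 1.14 (SE 0.18), a fold of 2.21, with an edgeR adjusted p of 0.116 and the smallest unadjusted p of the 9 genes, 0.000449.

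S100a1, best known as a regulator of calcium cycling in heart and skeletal muscle, had 694 and 544 counts in saline and 1402 and 1362 after treatment, or 43.4 and 36.7 against 79.5 and 66.4 CPM. Its groups did not overlap. The log2 fold change was 0.87 (SE 0.18), a fold of 1.82, with an edgeR adjusted p of 0.116. The 8 heart muscle markers summed to 100.1 and 90.0 CPM in saline and 82.0 and 123 CPM after treatment, nearly all of it Tnnt2. The other 7 summed to 3.94 and 1.08 CPM in saline and 5.50 and 5.27 CPM after treatment, so these low levels were higher in the treated samples. All 4 tested heart muscle markers had a log2 fold change above 0, with a median of 0.69, and 0 of the 4 had an unadjusted edgeR p under 0.05. Tnnt2 was at 0.07 (SE 0.23). Myh6, Actc1 and Tnni3, at low counts, were at 1.15 (SE 0.73), 1.10 (SE 0.70) and 0.29 (SE 0.80). Of all 15320 tested genes, 7961 had a log2 fold change above 0. The part of these markers in the S100a1 values was not tested.

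S100a4, a partner of non-muscle myosin that is widely used as a fibroblast and metastasis marker, had 656 and 855 counts in saline and 1198 and 2017 after treatment. These were 41.0 and 57.6 against 67.9 and 98.4 CPM. Here too the groups did not overlap, but replicates of each group lay far apart. This gave a log2 fold change of 0.75 (SE 0.25), a fold of 1.69, with an edgeR adjusted p of 0.160. All 7 fibroblast markers were lower at an unadjusted edgeR p under 0.05, where 12.2% of all tested genes were. Their summed levels were 5151 and 3544 CPM in saline and 1767 and 1459 CPM after treatment, and the groups of Lum overlapped. Col1a2 (12426 bases), Col3a1 (9816 bases) and Pdgfra (10024 bases) fall in the longest of 10 length bins, whose median log2 fold change was -0.31. Lum (2448 bases) falls in a bin with a median of 0.19, and S100a4 (584 bases) in the shortest, with 0.40. The part of these markers in the S100a4 values was not tested.

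S100a16, a broadly expressed S100 protein, had 1638 and 1857 counts in saline and 2671 and 3174 after treatment, or 102 and 125 against 151 and 155 CPM. Treated samples lay above saline samples. The log2 fold change was 0.43 (SE 0.17), with an edgeR adjusted p of 0.205.

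S100a6, or calcyclin, which binds the ubiquitin ligase partner CacyBP, was the most abundant S100 gene here. It had 28379 and 29911 counts in saline and 46706 and 48649 after treatment, or 1774 and 2016 against 2647 and 2372 CPM. The groups did not overlap, with a log2 fold change of 0.41 (SE 0.18), an unadjusted p of 0.0568 and an edgeR adjusted p of 0.228.

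S100a10, or p11, does not need calcium and forms a tetramer with annexin A2 that binds plasminogen at the cell surface. It had 9375 and 12707 counts in saline and 15603 and 14305 after treatment, or 586 and 856 against 884 and 698 CPM. The groups overlapped, and the log2 fold change was 0.13 (SE 0.24), with an edgeR adjusted p of 0.763. Its direction was not fixed: the log2 fold change was -0.05 without ADC/cmLumiOpto replicate 1, -0.13 without saline replicate 1 and -0.18 once a trend of the fold changes with gene length was removed.

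S100a11, or calgizzarin, a partner of annexins A1 and A2, had 10226 and 10866 counts in saline and 10671 and 13448 after treatment. In CPM these were 639 and 732 against 605 and 656, so the groups overlapped. It was the only tested gene among the 9 with a log2 fold change under 0, at -0.12 (SE 0.17), with an edgeR adjusted p of 0.689.

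S100a3, known from the hair cuticle, had 7 and 7 counts in saline and 15 and 10 after treatment, or 0.438 and 0.472 against 0.850 and 0.488 CPM. Saline values lay below treated ones, but the lower treated sample was close to both saline samples. Fitted without the filter, the log2 fold change was 0.54 (SE 0.92), with an edgeR adjusted p of 0.779. Part of S100a3 also lies in S100a2 on the same strand, with an overlap of 6873 bp, and S100a2 had 0, 3, 2 and 1 counts.

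**Figure D2:**
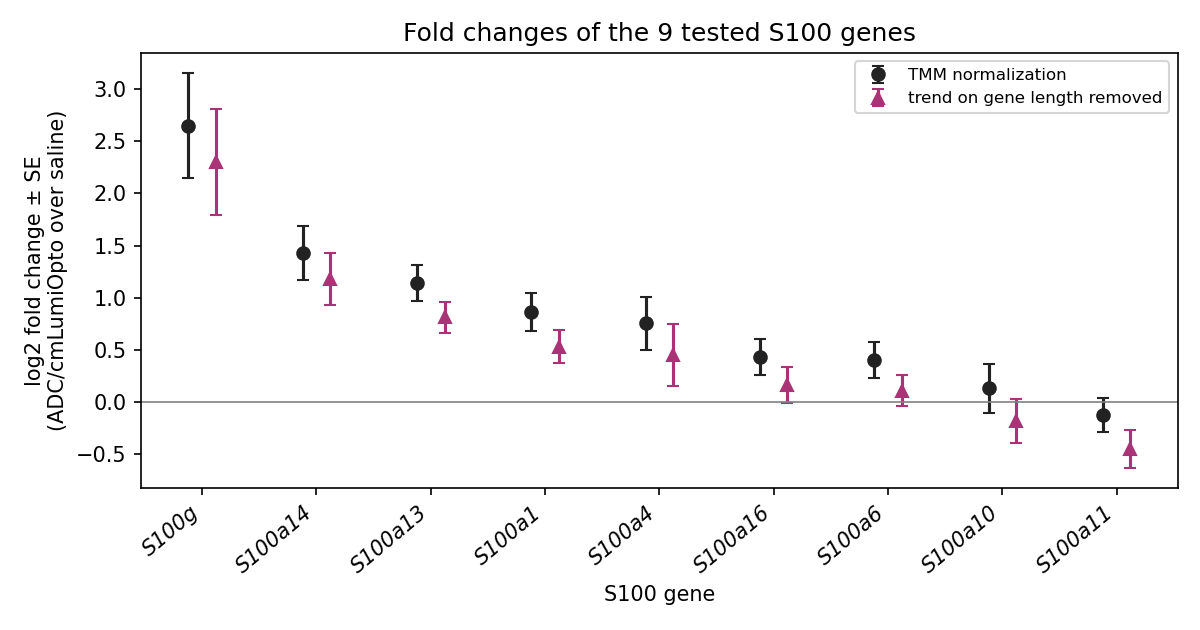
Log2 fold change (ADC/cmLumiOpto over saline, ± SE derived from the edgeR test statistic) of the 9 tested S100 genes, with TMM normalization (circles) and with the trend on gene length removed (triangles). S100g, S100a14, S100a13, S100a1 and S100a4 stayed above 0 by more than their SE in both. The lowest of these values was S100a4 at 0.45 (SE 0.30) with the trend removed, and S100a10 changed sign.

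Levels between genes were compared as RPKM, the CPM per kilobase, which divides by the gene length listed with the counts. In saline, the mean level was 1386 RPKM for S100a6, 1342 for S100a11 and 595 for S100a10. S100a6 ranked 14, S100a11 16 and S100a10 65 among all genes, and the ranges of S100a6 and S100a11 overlapped. A lower tier followed, with 84.5 RPKM for S100a4, 70.4 for S100a16, 57.7 for S100a1 and 36.0 for S100a13, where the ranges of S100a4 and S100a16 overlapped. S100a14 (4.54 RPKM), S100g (2.53 RPKM) and S100a3 (0.170 RPKM) came last.

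After treatment, the order differed in places. S100a6 was at 1836 RPKM and S100a11 at 1233, and their ranges no longer overlapped. S100a1 (105 RPKM) stood beside S100a16 (94.7 RPKM) with touching ranges, S100a4 was at 142 and S100a13 at 79.5, and S100g (16.0 RPKM) stood above S100a14 (12.2 RPKM). S100a6 made up 39.7% and 37.9% of the summed RPKM of the 10 genes in saline and 45.1% and 42.8% after treatment. For S100a11 these shares were 38.2% and 36.9% against 27.6% and 31.6%. Together the 10 genes held 3222 and 3859 CPM in saline and 4527 and 4126 CPM after treatment.

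The remaining S100 genes were few. S100a8 and S100a9, the calprotectin pair of neutrophils, together held 959 and 381 CPM in saline and 984 and 6904 CPM after treatment, so that 1 treated sample carried the difference. The S100a7a counts were 7 and 3 in saline and 23 and 14 after treatment, with a log2 fold change of 1.59 (SE 0.73) in a gene that reached the filter through the treated samples. S100b, known from glia, had 6, 11, 14 and 8 counts. S100z had 1 count in all, and S100a5, S100a7l2 and S100a11-ps had 0 in every sample.

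In the count table, whose positions differ from GRCm38 for all 10 genes and for which the submitters' processing notes name mm39, S100a1 spans chr3:90418341-90421699 and S100a10 ends the chromosome 3 group at chr3:93462387-93471950. From the first to the last base the interval measures 3053.61 kb and holds 123 genes, 15 of them S100 genes. S100a1 and S100a13 lie 42 bp apart, and S100a14 and S100a16 follow on the side of S100a13. S100a3, S100a4 and S100a6 come next, and a gap of 2429684 bp, with genes of the skin barrier in it, separates S100a7l2 from S100a11 and S100a10. The log2 fold changes of S100a13, S100a14 and S100a1, which lie together at the first end, were 1.14, 1.43 and 0.87. Those of S100a11 and S100a10 at the other end were -0.12 and 0.13. Between the ends the values followed no single slope. S100a16 was at 0.43, S100a4 at 0.75 and S100a6 at 0.41, and S100a7a, S100a8 and S100a9 at 1.59 (SE 0.73), 2.49 (SE 0.90) and 2.61 (SE 0.86). Of the 108 other genes in the interval, 19 had a count and 5 could be tested, and 0 of the 5 had an unadjusted p under 0.05 by the edgeR test. The lowest p among them belonged to Pglyrp3, a peptidoglycan recognition protein, at 1.53 (SE 0.70), and to the pseudogene Gm4202, at -0.42 (SE 0.21), both on the log2 scale.

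**Figure D3:**
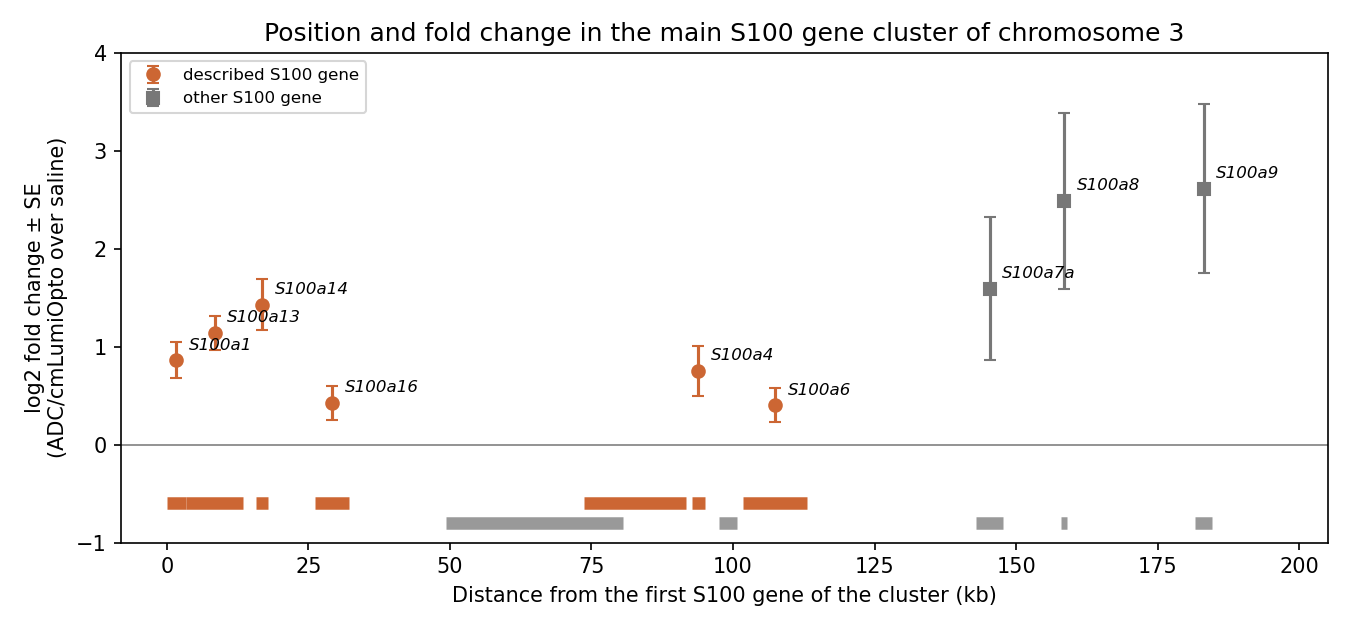
Log2 fold change (± SE) of the tested S100 genes against their distance from the first base of S100a1 in kb, over the main part of the chromosome 3 cluster, with bars for the gene spans. S100a1, S100a13 and S100a14 at the left end lie higher than S100a16 and S100a6, and the calprotectin genes at the right have the widest errors.

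Cell type markers differed between the samples, and their part in the S100 values was not tested. Summed alveolar type 2 markers were at 1752 and 519 CPM in saline and 5619 and 4883 CPM after treatment, with 6 of 8 genes higher and 1, Etv5, lower at an unadjusted p under 0.05. Alveolar type 1 markers were at 303 and 123 against 831 and 737 CPM, with 5 of 6 higher. Airway markers were at 1155 and 84.2 against 6237 and 2976 CPM, with 5 of 5 higher. Of all tested genes, 11% were higher and 12.2% lower at this p. Scgb1a1 (476 bases), Scgb3a2 (880 bases) and Sftpc (1034 bases) fall in the shortest of 10 length bins, where 21.8% were higher. Slc34a2 (5013 bases) and Rtkn2 (5547 bases) were also higher, in a bin where 6.92% were. Saline replicate 1 lay above saline replicate 2 in the alveolar type 2, alveolar type 1 and airway lists, as it did in 9 of the 11 marker lists in all.

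S100a1, S100a14 and S100g also had saline replicate 1 above replicate 2. The log2 ratio of replicate 2 over replicate 1 was -0.24 for S100a1, -0.46 for S100a14 and -1.38 for S100g. In the other 7 S100 genes replicate 2 was the higher one, by 0.55 for S100a10 and 0.10 for S100a13. Epithelial and tumor keratin markers, in contrast, were at 2906 and 3242 CPM in saline and 2852 and 2775 CPM after treatment. At an unadjusted edgeR p under 0.05, 0 of 6 were higher and 1, Krt14, lower, and 3 of the 6 had a log2 fold change above 0.

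Neutrophil markers, which include S100a8 and S100a9, were at 1157 and 534 CPM in saline and 1159 and 8047 CPM after treatment. None of the 10 S100 genes had such a gap between the treated samples, unlike S100a8 and S100a9. The widest of the 10 was in S100a3, where the log2 ratio of replicate 2 over replicate 1 was -0.80, and among the tested genes in S100a4, at 0.53. Macrophage markers were at 2866 and 2194 against 5581 and 3445 CPM, with Lyz2 alone at 1687 and 1128 against 4299 and 2447 CPM. Of these 7 genes, 1, Lyz2, was higher and 1, Mrc1, lower at an unadjusted edgeR p under 0.05. Over all tested genes, 11% were higher and 12.2% lower. Endothelial markers were at 407 and 310.2 against 425 and 655 CPM, with 3 of 5 higher at an unadjusted edgeR p under 0.05. T cell markers were at 40.6 and 15.3 against 84.6 and 36.8 CPM, with 2 of 6 higher at that p. All 5 endothelial and all 6 T cell markers had a log2 fold change above 0, with medians of 1.01 and 1.18. Of all 15320 tested genes, 7961 did. Smooth muscle markers were at 144 and 170 against 110 and 67.0 CPM, most of it Acta2 at 126 and 148 against 89.7 and 52.2 CPM. Of these 4 genes, 2 had a log2 fold change above 0 and 2 below. Acta2 was the 1 gene lower at an unadjusted edgeR p under 0.05, and 0 were higher. No marker of any list was at 0 in all samples.

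**Figure D4:**
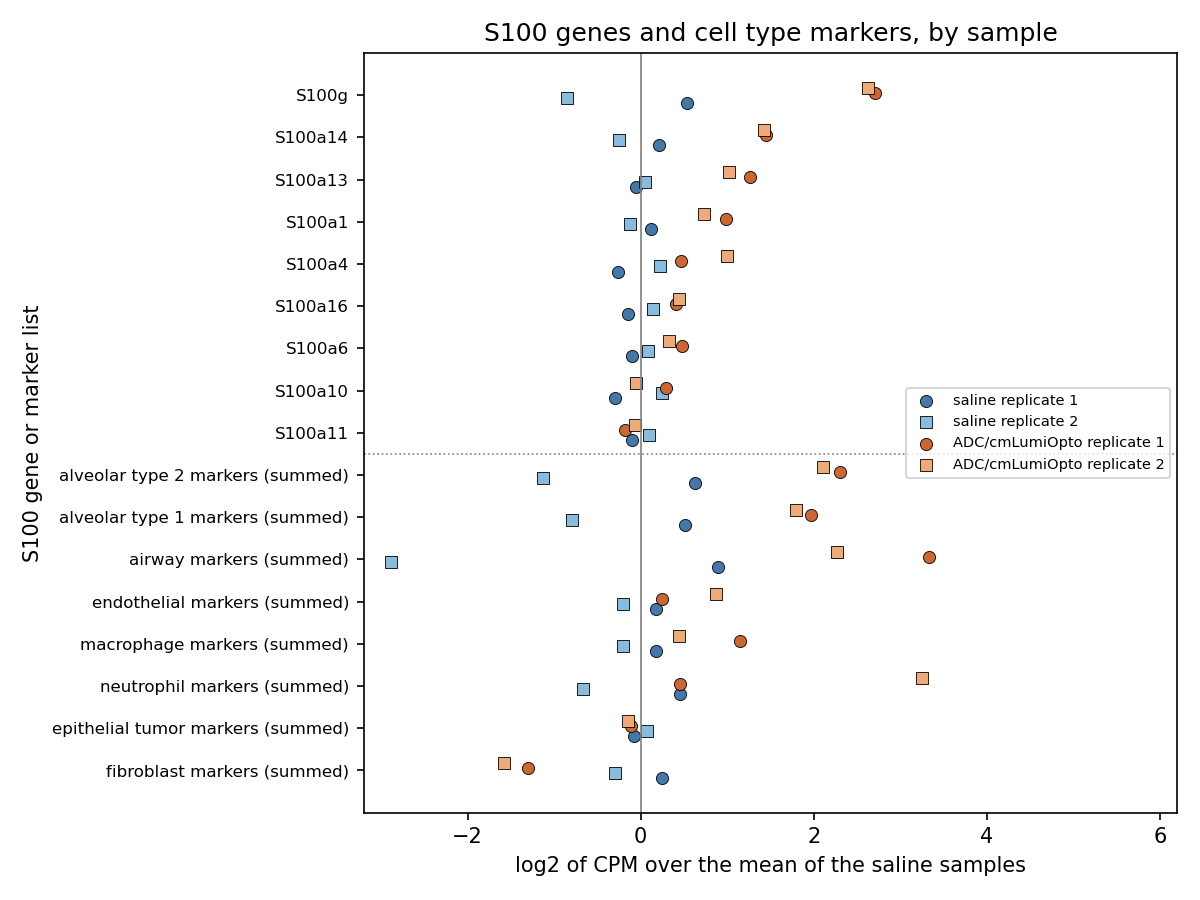
Log2 of the CPM of each tested S100 gene and of summed cell type markers in each sample, over the mean of the saline samples. S100g, S100a14 and S100a1 have saline replicate 1 above saline replicate 2, as all the marker sums shown but the epithelial tumor sum do, and the neutrophil sum stands apart in ADC/cmLumiOpto replicate 2 while the S100 genes shown do not.

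Fold changes also moved with gene length. Over the 15320 tested genes, Spearman's rho between log2 fold change and length was -0.34, given as a description since genes of one library set are not independent. The tested genes were sorted by length and cut into 10 bins of equal size. The bin of shortest genes, 57 to 1324 bases, had a median log2 fold change of 0.40, and both treated samples were above both saline samples in 46.6% of them. At an unadjusted edgeR p under 0.05, 21.8% of this bin and 21.1% of the next bin (1324 to 2081 bases) were higher, against 11% of all tested genes. The bin of longest genes, from 9589 bases, had a median of -0.31. S100 genes are short: S100g (480 bases), S100a11 (511), S100a4 (584), S100a1 (694), S100a13 (715) and S100a10 (1212) were in the shortest bin, and S100a6 (1367), S100a16 (1617) and S100a14 (1727) were in the next, whose median was 0.29.

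With a smooth trend on length removed from every sample, S100g was at 2.30 (SE 0.51), S100a14 at 1.18 (SE 0.25), S100a13 at 0.81 (SE 0.15) and S100a1 at 0.53 (SE 0.16) on the log2 scale, each still with an unadjusted edgeR p under 0.05. S100a4 was at 0.45 (SE 0.30), S100a16 at 0.16 (SE 0.17) and S100a6 at 0.11 (SE 0.15), with unadjusted p of 0.180, 0.388 and 0.482. S100a11 was at -0.45 (SE 0.18), with an unadjusted p of 0.0487. The median of the 9 genes became 0.45, against 0.02 for all tested genes, and the smallest edgeR adjusted p was 0.152.

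**Figure D5:**
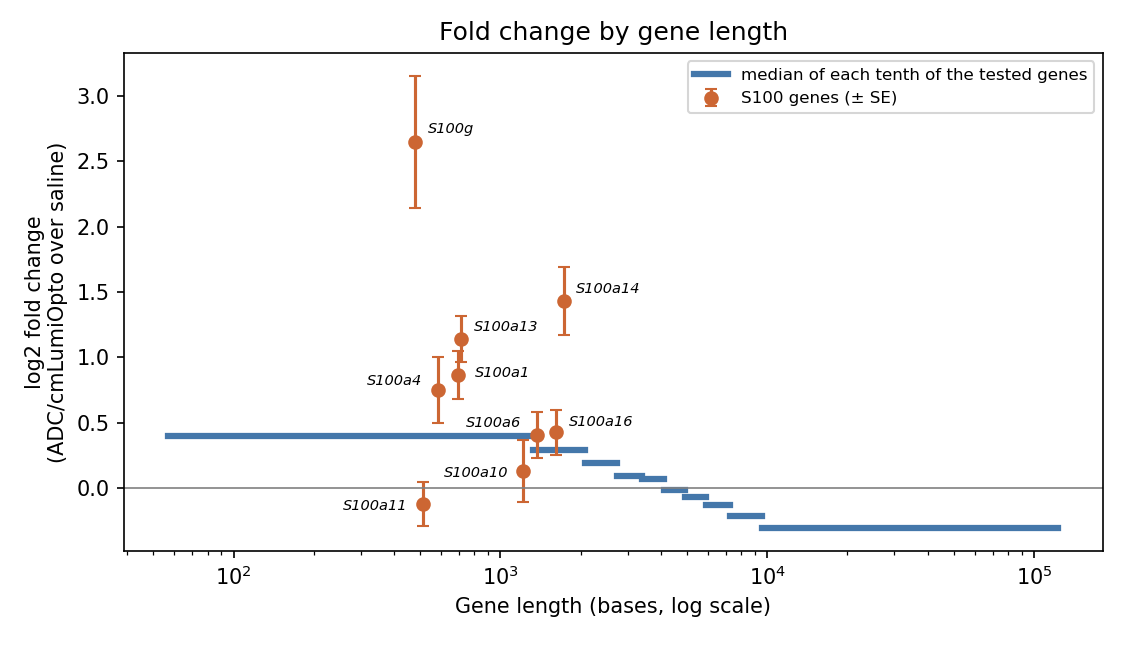
Log2 fold change (ADC/cmLumiOpto over saline) against gene length in bases (log scale), with horizontal bars for the median of each of 10 bins of the tested genes by length and points (± SE) for the 9 S100 genes. The bars descend from 0.40 to -0.31, and S100a10 and S100a11 lie below the bar of their own bin while the other 7 genes lie above it.

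Among the partners that S100 proteins bind, the receptor gene differed most. Ager, which encodes RAGE, had 2171 and 698 counts in saline and 7448 and 7763 after treatment. The groups did not overlap, with a log2 fold change of 2.13 (SE 0.46), a fold of 4.38, and an edgeR adjusted p of 0.116. Ager is also one of the alveolar type 1 markers. Tlr4, the other receptor listed, was at -0.03 (SE 0.17) on the log2 scale.

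Annexins showed no common direction. Of the 8 annexins and Ahnak, 2 were higher and 1 lower at an unadjusted p under 0.05, where 11% of all tested genes were higher and 12.2% lower, and the median log2 fold change was -0.15. The higher genes were Anxa1, a partner of S100a11, at 0.58 (SE 0.22), and Anxa3 at 0.42 (SE 0.15), and the lower gene was Anxa6 at -0.67 (SE 0.16). Anxa2, which pairs with S100a10, had 1082 and 1187 CPM in saline and 984 and 1062 CPM after treatment, with a log2 fold change of -0.15 (SE 0.16). Anxa11 was at -0.11 (SE 0.27), and Ahnak, the giant scaffold held by the annexin A2 and S100a10 complex, was at -0.41 (SE 0.17). At 19938 bases Ahnak belongs to the bin of longest genes, whose median log2 fold change was -0.31. As for S100a10 itself, the values of Anxa2 gave no difference beyond the error.

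Plasminogen activation is the process that the S100a10 and annexin A2 complex serves. Plat, the tissue plasminogen activator, was at 95.0 and 158 CPM in saline and 44.4 and 68.4 CPM after treatment, with a log2 fold change of -1.16 (SE 0.31) and an edgeR adjusted p of 0.124. Plau, urokinase, named after its values were seen, was at -0.40 (SE 0.16) on the log2 scale. Plg, plasminogen itself, had 0 counts in every sample.

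Of 7 tested genes for intracellular targets, 3 were lower and 0 higher at an unadjusted p under 0.05, where 12.2% of all tested genes were lower and 11% higher. Myh9, the non-muscle myosin heavy chain that S100a4 binds, had 1089 and 1096 CPM in saline and 624 and 783 CPM after treatment. Its log2 fold change was -0.63 (SE 0.18), with an edgeR adjusted p of 0.133. Myh10, a second non-muscle myosin, was at -1.17 (SE 0.15), with an edgeR adjusted p of 0.116. Ppfibp1, named after its values were seen, was the remaining lower gene at -0.57 (SE 0.17). Cacybp, which encodes the partner of S100a6, was at 0.43 (SE 0.25), and its groups overlapped. All 3 lower genes, Myh9 (12928 bases), Myh10 (10458 bases) and Ppfibp1 (11135 bases), belong to the bin of longest genes, whose median log2 fold change was -0.31.

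Of the genes whose products leave the cell with S100a13, Fgf1 was at 1.09 (SE 0.46) and Il1a at -0.49 (SE 0.37) on the log2 scale, neither with an unadjusted p under 0.05, and Syt1 had 0 counts. The list of calcium transport and its control includes targets of S100a1 and also holds a potassium channel, Kcnk3. Of its 6 tested genes, 3 were lower and 1, Kcnk3, higher at an unadjusted p under 0.05, where 12.2% of all tested genes were lower and 11% higher. Atp2a2, the calcium pump of the endoplasmic reticulum, was at -0.55 (SE 0.16), with an edgeR adjusted p of 0.137. Atp2b1, a calcium pump of the plasma membrane, was at -0.56 (SE 0.16). At 15218 bases Atp2b1 belongs to the bin of longest genes, whose median log2 fold change was -0.31. The vitamin D receptor Vdr at -0.48 (SE 0.18) was the remaining lower gene and the potassium channel Kcnk3 at 1.96 (SE 0.69) the higher one, both named after their values were seen.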

How the data were processed

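Total RNA from lung tissue with 4T1 metastases was sequenced by the authors on an Illumina HiSeq system after poly-A selection. The deposited values are raw counts, whole numbers of reads assigned to each of 56748 genes, without normalization by the authors. The methods name HISAT2 and GRCm38, the submitters' processing notes name HISAT2 and mm39, and the counting program and its strand setting are not given in the sources used here. Genes were therefore matched by symbol, and RefSeq windows by symbol on their own build.

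Total counts were 15263375 to 19675436 per sample, so that 3 counts, taken as the floor, equal 0.152 to 0.197 CPM, for counting error only. Using edgeR 4.0.16 in R 4.3.3, low genes were removed with filterByExpr (minimum count 10, minimum total 15), and counts were normalized by TMM and compared by glmQLFit and glmQLFTest without covariates, with Benjamini-Hochberg adjustment over 15320 genes and a threshold of 0.05. Fold changes used a prior count of 0.125. The trend on gene length was removed by lowess (span 0.3) through offsets.

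The alternatives were DESeq2 1.42.0, the edgeR exact test, other scalings and filters, the replicate block, the length trend, and each sample left out. Scripts were tested on simulated data. Named genes were all 10 S100 genes, the other S100 genes with a count, 7 known partners, and the 2 genes of lowest p in each partner list and in the chromosome 3 interval, apart from 1 gene that is not reported here. The S100 genes, lists and markers were chosen with earlier results of these data known.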

Additional observations from a re-analysis of the deposited data

How the results depend on the processing

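With 2 samples per group, the count of genes past an adjusted p of 0.05 depended on the test. Over all genes it was 0 by edgeR's quasi-likelihood test, 1353 by DESeq2, 1170 by the edgeR exact test, 2259 without the filter, and 0 to 218 with a sample left out. It was 218 without saline replicate 1, 10 without saline replicate 2, 5 without ADC/cmLumiOpto replicate 1 and 0 without ADC/cmLumiOpto replicate 2. Among the S100 genes it was 4 by DESeq2, 4 by the exact test and 5 without the filter. With a replicate block it was 607 over all genes (3.96% of the tested genes), of which 308 were higher. Among the S100 genes it was 4, all higher (S100a1, S100a13, S100a14 and S100g). With the replicate block and the length trend removed it was 2 and 0. The samples share only a number: deviations of same-numbered samples correlated at r = 0.0985, and the pairing was not used. The cause of these differences was not tested.

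S100a10 was the only S100 gene to change direction, in 4 of 13 alternatives. Its log2 fold change was -0.18 with the length trend removed, -0.16 with the replicate block and the length trend removed, -0.05 without ADC/cmLumiOpto replicate 1 and -0.13 without saline replicate 1, against 0.44 without saline replicate 2. The other 8 tested genes kept their sign in all 13. The log2 fold change ranged from 2.13 to 3.49 for S100g, 1.18 to 1.66 for S100a14, 0.81 to 1.25 for S100a13 and 0.53 to 0.98 for S100a1. Their highest edgeR adjusted p, 0.243, 0.327, 0.243 and 0.440, came without saline replicate 2. At the depth of S100a3, 7 to 15 counts, the SE of the log2 fold change without the filter was 0.92.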
